A study of Homo sapiens with 17 samples.

Results

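The comparison described here sets 6 h against 3 h of TRAIL in MDA-MB-231 cells, the step from the early to the middle part of a response followed for 24 h. It uses the 3 libraries labelled 3 h and the 3 labelled 6 h, which are 6 of the 17 libraries analysed, and it describes all genes that could be tested. MDA-MB-231 is an established human line from a triple-negative breast cancer, labelled as mesenchymal and basal B, and the labels name no engineered change. All libraries, those at 0 h included, carry the label of TRAIL treatment, at a dose of 45 nM that the labels call suboptimal. The protocols describe growth in RPMI with serum and libraries of poly(A)-selected RNA from a stranded paired-end kit. No library of cells kept for 3 h or 6 h without TRAIL was analysed here, so time with TRAIL and time in culture cannot be told apart. The labels do not say whether the replicates came from separate cultures, and the p-values then measure only the spread between these libraries, which may be technical.

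TRAIL is a ligand of the TNF family. Its receptors TNFRSF10A and TNFRSF10B recruit the adaptor FADD and the protease CASP8, which can start apoptosis, and the same receptors can activate the transcription factor NF-κB. In resting cells IκB proteins hold NF-κB dimers in the cytoplasm. Freed dimers switch on genes of cytokines and survival proteins together with genes of their own inhibitors, such as NFKBIA and TNFAIP3, so that the response is self-limiting. NFKB2 encodes the p100 precursor of the non-canonical branch and is the subunit named in the title of the series.

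The consensus motif of NF-κB (the κB motif) stands in the proximal promoters of several genes that moved between 3 h and 6 h. The 150 bases before the RefSeq transcription start (build GRCh38.p14) are given 5′ to 3′ on the gene's strand for 3 genes that were lower at 6 h and for NFKB1, which was higher, with each match to the κB motif, on either strand, in capitals. TNFAIP3 has a pair of matches 2 bases apart, and in CXCL1 a match on each strand overlaps the other.
NFKBIA, chr14:35404750-35404899, minus strand: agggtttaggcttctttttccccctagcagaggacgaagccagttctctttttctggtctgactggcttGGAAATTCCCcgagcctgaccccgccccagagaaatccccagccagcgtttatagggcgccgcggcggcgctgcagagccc
TNFAIP3, chr6:137867109-137867258, plus strand: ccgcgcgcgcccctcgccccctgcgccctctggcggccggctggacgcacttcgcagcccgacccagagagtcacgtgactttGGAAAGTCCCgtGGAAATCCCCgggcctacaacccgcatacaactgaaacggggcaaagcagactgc
CXCL1, chr4:73869243-73869392, plus strand: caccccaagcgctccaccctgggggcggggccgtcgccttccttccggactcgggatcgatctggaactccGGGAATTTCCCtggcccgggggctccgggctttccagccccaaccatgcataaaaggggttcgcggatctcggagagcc
NFKB1, chr4:102501209-102501358, plus strand: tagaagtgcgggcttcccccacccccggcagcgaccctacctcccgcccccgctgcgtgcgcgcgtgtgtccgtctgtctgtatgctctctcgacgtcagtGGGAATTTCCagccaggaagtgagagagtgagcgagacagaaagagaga

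The motif was searched on both strands from 250 bases before to 50 bases after each start. It was found in 3956 of 35116 promoters (11.3%) and in 1444 of the 11053 tested genes that had a promoter in the table (13.1%). Among the genes of the 4 NF-κB lists described below, 24 of 76 with a promoter held it (31.6%). It stood in 11 of the 22 of these that fell (50%), namely NFKBIA, TNFAIP3, NFKBIZ, BCL3, CXCL1, CXCL2, IL6, IL32, IFNGR2, IRF1 and STX11. It also stood in 4 of the 25 that rose (16%), namely NFKB1, TAP1, PANX1 and TRAF3. Over all genes called, the shares were 13.1% of those lower and 13.4% of those higher. A narrower form, with A as its purine and T as its pyrimidines, was searched first and stood in 1.57% of the tested genes, in 8 of the 22 that fell and in 3 of the 25 that rose. The 4 lists were drawn up as genes of NF-κB, so their share above that of all genes follows from the choice and is no result. The 4 genes shown above all hold a match, whereas CSF2, CXCL8, HBEGF and ZC3H12A, which fell, and ICAM1, which rose, had none. A match is a description of the letters and not of a bound site.

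Before the results, the libraries themselves differed between the times. Total counts per library were 13731497 to 14520444 at 3 h and 15019612 to 18458165 at 6 h. The share of counts from mitochondrially encoded genes was 8.58% ± 0.522 (SD, n = 3) at 3 h and 4.49% ± 0.83 at 6 h, with no overlap. Libraries of the same time also differed in this share, from 5.53% to 8.37% at 0 h and from 5.01% to 6.8% at 12 h. In each library the deviation of log2 CPM (a gene's counts over its library's TMM-scaled size, in the usual CPM unit) from the mean of all libraries was regressed on the log2 of transcript length and on GC content together. That slope was -0.0786, -0.114 and -0.0679 at 3 h and 0.0106, 0.0918 and 0.0855 at 6 h, so long transcripts had more of the reads in every 6 h library than in any 3 h library. For this reason the counts of the gene lists below are followed by their values after a correction that removed, per library, the trend of expression with transcript length and GC content, called the corrected fit. The part of the length trend in each result was not tested further. Replicates 2 and 3 at 6 h were closer to each other than any other pair (chi-square of 1.52 per gene over 10478 genes, against 4.09 to 12.9 in the other pairs), yet differed by more than counting noise, and were kept as separate libraries. The 12 markers of a mesenchymal basal B line all passed the filter, with a summed level of 8910 to 9300 CPM at 3 h and 10000 to 10300 CPM at 6 h, led by VIM, CD44 and FN1. SPARC was near the floor, at 0.216 to 1.07 CPM over the 6 libraries. Of 12 luminal markers 9 passed the filter, summing to 2230 to 2680 CPM at 3 h and 1940 to 2070 CPM at 6 h. The sums were led by the keratins KRT8 (912 to 1140 CPM over the 6 libraries), KRT18 (571 to 931 CPM) and KRT19 (298 to 443 CPM). FOXA1 and PGR were at 0 counts in all 6 libraries. Leukocyte markers (2 of 7 tested) summed to 59.4 to 66.1 CPM at 3 h and 74.5 to 75.3 CPM at 6 h, led by CD68, with CD3E and HBB among those at 0 counts. Endothelial markers (2 of 5) summed to 2.6 to 3.18 CPM and 4.99 to 5.64 CPM, led by KDR. Fibroblast markers (2 of 5) summed to 5.52 to 6.97 CPM and 6.38 to 8.49 CPM, with DCN at 0.

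The step from 3 h to 6 h touched a large share of the transcriptome by small amounts. Of 15365 genes tested with edgeR's quasi-likelihood test, 3526 were higher at 6 h (22.9%) and 3114 were lower (20.3%) at a Benjamini-Hochberg adjusted p below 0.05, together 43.2%. The median absolute log2 fold change of the called genes was 0.42. Only 107 genes rose (0.696%) and 291 fell (1.89%) by 2-fold or more, against 128 and 172 in the corrected fit. The groups did not overlap for 6303 of the calls (94.9%). Over all genes tested the corresponding background was 26.8% with all 6 h libraries above all 3 h libraries and 25.5% with all below. In the corrected fit 3592 genes were higher (23.4%) and 2715 lower (17.7%), and 4886 genes (73.6% of those called without correction) kept their call and direction, a share of 79.6% for higher and 66.8% for lower calls. The shares of 22.9% higher and 20.3% lower, and of 23.4% and 17.7% corrected, are the background for every list count below. Some list counts are also given for alternative fits, in which fewer of all genes were called. Higher and lower calls were 2709 and 2314 without replicate 2 at 3 h, and 2987 and 2599 without replicate 1. Without replicate 2 or 3 at 6 h they were 2852 and 2435 or 2743 and 2320. With the 6 h replicates 2 and 3 averaged they were 2796 and 2351. The balance of higher and lower calls moved with the scaling: 53.1% of calls were higher with TMM, 42.6% with upper-quartile scaling and 63.8% with library size alone.

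**Figure D1:**
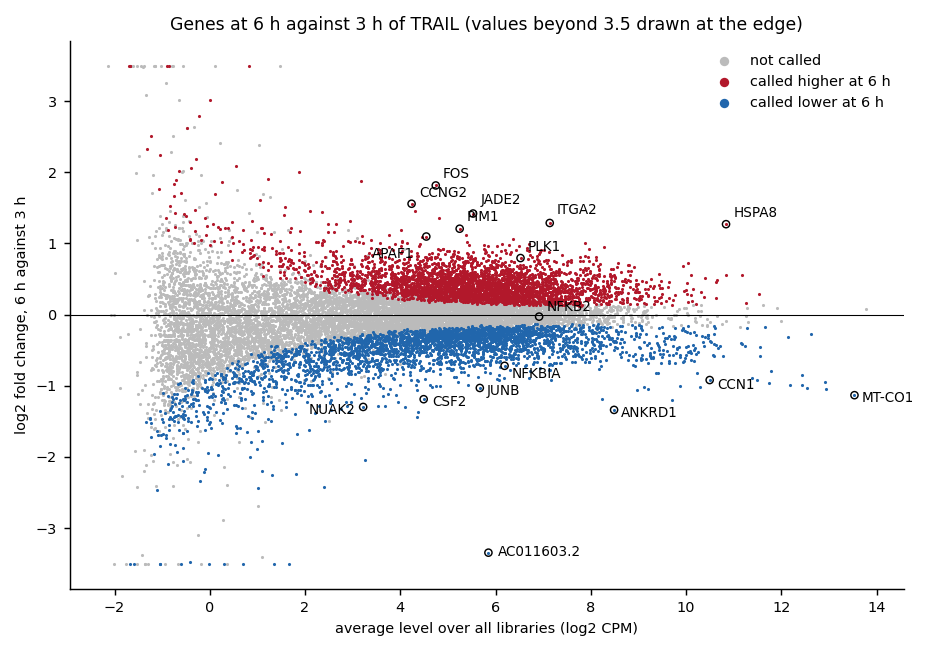
Log2 fold change of each gene at 6 h against 3 h (y axis) against its average log2 CPM over all libraries (x axis), with genes called higher in red, called lower in blue and not called in grey. FOS and CCNG2 stand highest among the labelled genes, AC011603.2 lowest, ANKRD1, NUAK2 and CSF2 among the lowest protein-coding ones, and NFKB2 lies on the zero line.

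Genes that rose most included regulators of transcription and of the cell cycle. FOS, a subunit of the AP-1 transcription factor (ENSG00000170345.10, chr14:75278774-75282230, plus strand), stood at 13.6, 11.6 and 11.5 CPM at 3 h and at 51.7, 38.6 and 39.0 CPM at 6 h. The lowest 6 h library was thus far above the highest 3 h library, and the log2 fold change was 1.82 (SE 0.142, adjusted p = 1.6e-07). Its mean was 44.0 CPM at 0 h, so that FOS was low at 3 h and back at its starting level at 6 h. FOSB, a related subunit, rose from 3.23 to 4.43 CPM to 8.36 to 12.1 CPM (log2 fold change 1.44, adjusted p = 5e-05). CCNG2, an atypical cyclin found in cells leaving the cycle, stood at 8.6, 5.36 and 8.39 CPM at 3 h and 21.7, 23.1 and 21.4 CPM at 6 h (log2 fold change 1.56, adjusted p = 1.9e-07). Its mean at 0 h was 18.4 CPM, so its course also had its low point at 3 h. ROBO1, a guidance receptor (1.45), TMCC3 (1.45), JADE2, a subunit of histone acetyltransferase complexes (1.42), KSR1, a scaffold of the RAF–MEK–ERK cascade (1.32), and ITGA2, the collagen-binding integrin alpha subunit (1.29), followed in log2 fold change. Against 0 h, ROBO1, TMCC3, JADE2 and KSR1 had log2 fold changes of -1.21, -1.07, -0.68 and -0.61 at 3 h and of 0.24, 0.38, 0.75 and 0.71 at 6 h. These contrasts share the 3 h and 6 h libraries with the main one, and are given side by side only. The rest of the 12 highest were AL669918.1 (1.87), NOMO3 (1.36), ZNF788P (1.28) and PCDHGB2 (1.27), whose expected counts were not whole numbers in 16 or 17 libraries, as arises where fragments are divided between similar or overlapping genes. Those of KSR1 were not whole in 17 libraries.

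At the other end stood mostly non-coding entries. AC011603.2, an antisense RNA on chromosome 12 (49127782 to 49147869), fell from 199, 216 and 134 CPM to 34.6, 13.8 and 6.26 CPM (log2 fold change -3.35, SE 0.931, adjusted p = 0.013). Its libraries did not overlap between the times, but they varied several-fold within the 6 h group. AP003392.3 (-2.42), AC087190.3 (-2.05), FABP5P7 (-1.63), AL671710.1 (-1.49), AC239811.1 (-1.38), AC009133.6 (-1.36), BCL2L2-PABPN1 (-1.34), RCC2-AS1 (-1.33) and AC011603.2 itself had fractional counts in 16 or 17 libraries and remain uncertain, since the strand setting of the counting is not given in the sources used here. AL590644.1, a lincRNA, fell by 1.37 on the log2 scale with fractional counts in 4 libraries. Of these entries, AC009133.6 and BCL2L2-PABPN1 are annotated as protein-coding. ANKRD1 and NUAK2, also protein-coding, complete the 12 lowest and are described with the YAP/TAZ targets. Of the 291 genes lower by 2-fold or more, 36.0% were protein-coding and 39.9% were antisense or lincRNA, against 84.0% and 8.51% of all genes tested, and 41.6% had fractional counts in most libraries, against 25.7%.

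In absolute level, the largest gains were in chaperones and matrix genes. HSPA8, the constitutive HSP70 chaperone (chr11:123057489-123063230, minus strand), gained most, from 1244 ± 190 CPM at 3 h to 3003 ± 410 CPM at 6 h (SD, n = 3). HSP90AA1 rose from 1954 to 2878 CPM, FLNA (filamin A, an actin crosslinker) from 1583 to 2322 CPM, THBS1 (thrombospondin) from 1637 to 2300.2 CPM, FN1 (fibronectin) from 961 to 1587 CPM and HSP90AB1 from 2669 to 3276 CPM. The 6 largest losses were all transcripts of the mitochondrial genome. MT-CO1, a cytochrome oxidase subunit, fell from 17875 ± 1571 CPM to 8155 ± 1595 CPM.

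Of the NF-κB subunits NFKB1 and RELA rose. NFKB1, the p105/p50 subunit, stood at 53.5, 55.1 and 62.5 CPM at 3 h and at 69.4, 77.3 and 84.2 CPM at 6 h, without overlap (log2 fold change 0.43, SE 0.0926, adjusted p = 0.001). RELA, the p65 subunit, rose from 108 to 112 CPM to 129 to 133 CPM (0.26, adjusted p = 0.0014). NFKB2 (chr10:102394110-102402529, plus strand) stood at 161, 178 and 148 CPM at 3 h and at 165, 157 and 155 CPM at 6 h. These ranges overlapped and the log2 fold change was -0.03 (SE 0.0657, adjusted p = 0.76), a value near 0 at a level about that of the 3 h peak, since the mean was 80.3 CPM at 0 h, 101 CPM at 12 h and 122.8 CPM at 24 h. RELB, its dimer partner, was at 44.9 to 46.3 CPM and 48.1 to 49.4 CPM (0.09, adjusted p = 0.38), and was called higher only in the corrected fit (0.30, adjusted p = 0.0042). REL stayed at 4.75 to 7.24 CPM and 5.77 to 6.95 CPM (0.19, adjusted p = 0.53). The count was thus 2 of 5 higher and 0 lower, and 3 higher in the corrected fit.

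Several IκB-family genes and TNFAIP3 fell, while other regulators of NF-κB, inhibitors and adaptors among them, rose. NFKBIA, the main IκB (chr14:35401511-35404749, minus strand), stood at 120, 115 and 113 CPM at 3 h and at 75, 66.1 and 70 CPM at 6 h. All 3 libraries at 6 h lay below all at 3 h, a log2 fold change of -0.72 (SE 0.0609, adjusted p = 1.9e-07), and all lay above the 0 h mean of 44.3 CPM. TNFAIP3, the ubiquitin-editing inhibitor A20, fell from 26.8, 25.1 and 25.7 CPM to 16.4, 18.5 and 16.8 CPM (-0.59, adjusted p = 9.9e-05). NFKBIE and NFKBIZ, further members of the IκB family, both fell by 0.32 (adjusted p = 0.00045 and 0.0097). BCL3, another IκB-like protein, fell by 0.47, and this call was lost in the corrected fit (adjusted p = 0.067). MAP3K14, the kinase NIK that opens the non-canonical branch, fell from 71.1 to 77.3 CPM to 55.2 to 63.3 CPM (-0.31, adjusted p = 0.0014, with fractional counts in 15 libraries). TRAF1, an adaptor that is itself an NF-κB target, instead rose from 47.2, 48.2 and 48.0 CPM to 70.7, 78.0 and 72.1 CPM (0.62, adjusted p = 5.3e-06). TAB2 (0.61) and TAB3 (0.44), adaptors of the kinase TAK1, CHUK (0.45), the IKK alpha subunit, and TNIP1 (0.42), an inhibitor that partners TNFAIP3, also rose. The inhibitory deubiquitinases CYLD (0.35) and OTULIN (0.26) were called higher and lost the call in the corrected fit (adjusted p = 0.24 and 0.59), and NFKBIB, another IκB, was not called (-0.09, adjusted p = 0.45). Across the list of 27 regulators, 11 rose and 8 fell (10 and 8 in the corrected fit), with a median log2 fold change of -0.02, as over all genes tested. Without replicate 2 at 3 h the count of higher members was 7.

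Several cytokine genes were lower at 6 h than at 3 h, and above 0 h at both times. CSF2, the growth factor GM-CSF (chr5:132073790-132076170, plus strand), stood at 57.3, 54.7 and 48.3 CPM at 3 h and at 24.5, 24.5 and 21.4 CPM at 6 h (log2 fold change -1.19, SE 0.112, adjusted p = 7.4e-07). The 6 h libraries lay below every 3 h library and above the 0 h mean of 10.5 CPM. CXCL8, the neutrophil attractant interleukin 8, fell from 57.9, 52.7 and 61.7 CPM to 40.9, 38.4 and 33.8 CPM (-0.61, adjusted p = 0.00017), against 11.3 CPM at 0 h. CXCL1, a chemokine of the same receptor, fell from 8.82, 10.8 and 10.8 CPM to 5.37, 5.9 and 5.94 CPM (-0.82, adjusted p = 0.00031). HBEGF, an EGF receptor ligand (-0.48, adjusted p = 8.3e-06), IL11 (-0.48, adjusted p = 9.7e-05) and LIF (-0.40, adjusted p = 0.00014), both cytokines of the IL-6 family, fell as well. CXCL2, IL6 and CCL5 were called lower (-0.39, -0.26 and -1.09), and none of these 3 was called in the corrected fit (adjusted p = 0.47, 0.67 and 0.087). Only EREG, the EGF receptor ligand epiregulin, and AREG were called higher, EREG from 6.38, 5.59 and 8.68 CPM to 10.4, 16.6 and 15.9 CPM (1.05, adjusted p = 0.00023). CSF1, the macrophage growth factor, was at 187 to 200.01 CPM and 205 to 213 CPM (0.10, adjusted p = 0.14). In all, 12 of the 31 cytokines tested fell and 2 rose, with a median of -0.29, and 8 fell and 3 rose in the corrected fit, with a median of -0.06. CCL2, CCL20, CXCL5, CXCL6 and LTA had at most 6 counts in any library and were not tested.

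**Figure D2:**
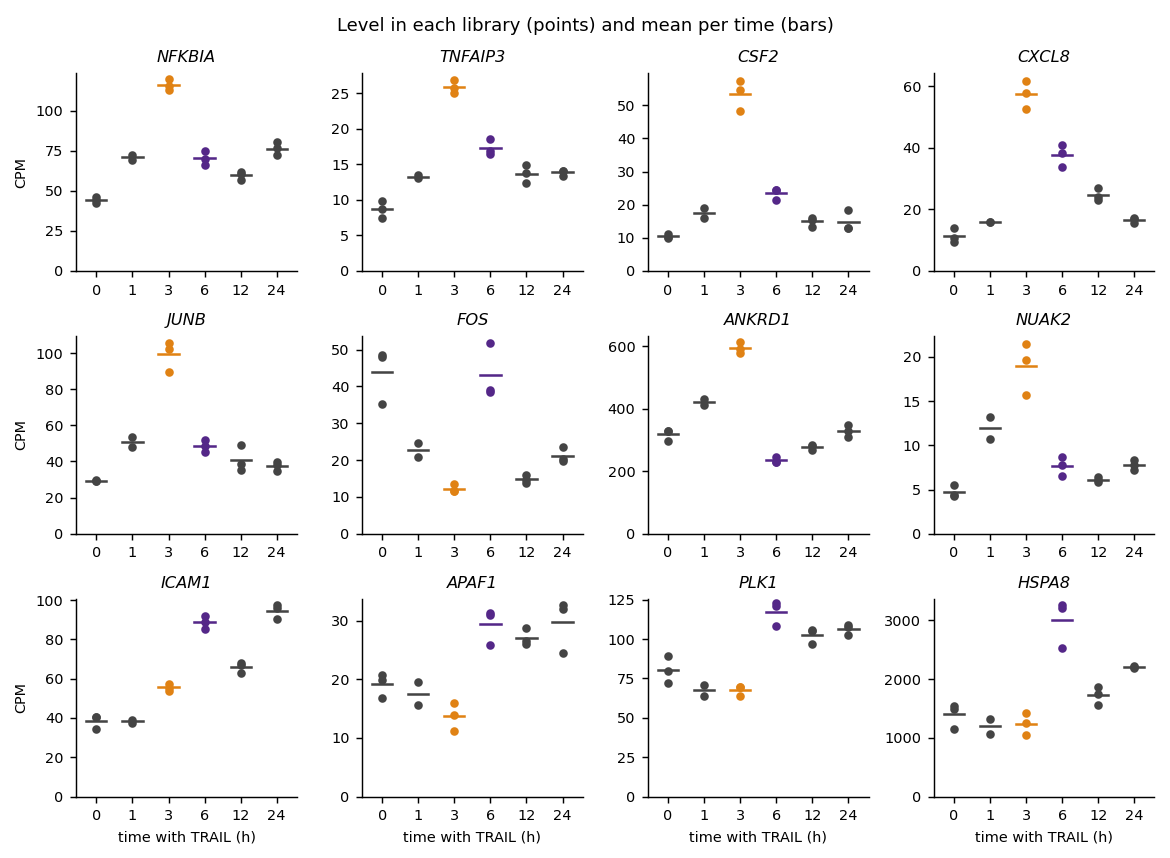
Level in CPM (y axis, from 0) of 12 genes in each library (points) with the mean per time (bars) over the 6 times (x axis, equally spaced), the 3 h libraries in orange and the 6 h libraries in purple. NFKBIA, TNFAIP3, CSF2, CXCL8, JUNB, ANKRD1 and NUAK2 are highest at 3 h, FOS is lowest there, and ICAM1, APAF1, PLK1 and HSPA8 are higher at 6 h than at 3 h without overlap.

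Effector genes of NF-κB took a mixed course between 3 h and 6 h, in which ICAM1 and some other genes rose. ICAM1, an adhesion receptor for leukocytes, stood at 53.9, 55.4 and 57.3 CPM at 3 h and at 85.3, 88.8 and 92.1 CPM at 6 h (0.68, adjusted p = 1e-06). VCAM1, another adhesion gene of the list, was not called. IRF2, a transcription factor that can oppose IRF1, rose from 13.7 to 16.6 CPM to 24.4 to 26.0 CPM (0.75, adjusted p = 8.1e-06), while IRF1 fell from 75.1 to 81.4 CPM to 54.3 to 56.3 CPM (-0.49, adjusted p = 3.9e-05, with fractional counts in all 17 libraries). SLC7A2, a transporter of cationic amino acids (0.87), SERPINB2, an inhibitor of urokinase (0.74), the collagenase MMP1 (0.53), and SOD2, mitochondrial superoxide dismutase (0.45), rose too. ZC3H12A, the RNase Regnase that degrades cytokine mRNAs, fell from 18.8, 18.2 and 16.2 CPM to 12.6, 11.1 and 10.4 CPM (-0.64, adjusted p = 0.00047). BIRC3, an inhibitor of apoptosis, stayed near its 3 h level, at 179 to 217 CPM and 162 to 207 CPM (-0.08, adjusted p = 0.46), against 42.5 CPM at 0 h, and was called lower in the corrected fit (-0.32, adjusted p = 3.8e-05). Of 34 effectors 14 rose and 7 fell (14 and 5 in the corrected fit), with a median of 0.21. With the 6 h replicates 2 and 3 averaged as 1 replicate, 11 rose and 3 fell.

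In the list of TRAIL receptors and caspase machinery more genes rose than fell. APAF1, the scaffold of the apoptosome (chr12:98645141-98735433, plus strand), stood at 13.9, 11.2 and 16 CPM at 3 h and at 25.9, 30.9 and 31.4 CPM at 6 h (1.10, SE 0.135, adjusted p = 1.9e-05). The groups did not overlap, and the corrected fold change was 0.88. The inhibitors of apoptosis BIRC6 (0.66), BIRC2 (0.57) and XIAP (0.44) rose as well, BIRC2 from 155, 138 and 179 CPM to 215, 240 and 246 CPM. Among the receptors of TRAIL, the decoy TNFRSF10D (0.50) and the death receptors TNFRSF10A (0.28, with fractional counts in 16 libraries) and TNFRSF10B (0.21) rose, TNFRSF10B from 137 to 141 CPM to 157 to 167 CPM. CASP8, the initiator protease, was at 26.6 to 27.7 CPM and 24.6 to 26.0 CPM (-0.10, adjusted p = 0.31). Of the 26 genes of this list 14 rose and 2 fell, 13 and 2 in the corrected fit. Those called lower, TRADD and HTRA2, lost the call in the corrected fit, and no member was called lower without replicate 1 or 2 at 3 h, without replicate 2 at 6 h, or with the 6 h replicates 2 and 3 averaged. In the BCL2 family 4 of 18 genes rose, BAK1 (0.60), BCL2L11 (0.48), BCL2 (0.44) and PMAIP1 (0.40), and 2 fell, BBC3 (-0.51) and BNIP3 (-0.27). The shares of 22.2% higher and 11.1% lower compare with 22.9% and 20.3% of all genes tested. In the corrected fit 6 were higher and 1 lower, and BCL2 (adjusted p = 0.065) and BBC3 (0.37) lost their calls. BAK1, a pore-forming effector, went from 58.3 to 62.5 CPM to 89.6 to 95.2 CPM, whereas the survival genes MCL1 (0.10, adjusted p = 0.12) and BCL2L1 (0.02, adjusted p = 0.74) were not called, although BCL2L1 was called higher in the corrected fit (0.12, adjusted p = 0.042).

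Immediate-early genes divided into those that fell after 3 h and those that rose. JUNB, an AP-1 subunit, stood at 102, 106 and 89.7 CPM at 3 h and at 51.8, 48.8 and 45.2 CPM at 6 h (-1.03, SE 0.0954, adjusted p = 7.3e-07). FOSL1, another AP-1 subunit, fell from 1073 to 1216 CPM to 629 to 703 CPM (-0.81, adjusted p = 1.4e-06). JUN (-0.59), JUND (-0.66), IER3 (-0.58) and CEBPD (-1.22) fell likewise. FOS and FOSB rose, as did KLF9 (1.02), KLF10 (0.49) and KLF6 (0.43), factors of the Krüppel-like family. EGR1 was at 34.8 to 49.5 CPM and 43.5 to 57.4 CPM (0.27, adjusted p = 0.11) and MYC at 171 to 175 CPM and 168 to 171 CPM (-0.02, adjusted p = 0.76). Over the list of 32, 8 rose (25%) and 12 fell (37.5%), against 22.9% and 20.3% of all genes tested. In the corrected fit the counts were 8 and 10, and the uncorrected median was -0.23.

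Feedback inhibitors of the ERK pathway mostly rose. DUSP1, a phosphatase of MAP kinases, stood at 33.4, 29.7 and 32.7 CPM at 3 h and at 62.2, 57.1 and 59.4 CPM at 6 h (0.90, SE 0.0658, adjusted p = 3.9e-08). SPRED3 (1.16), SPRED1 (0.88) and SPRY1 (0.63), inhibitors of RAS signalling, and RASA1 (0.81, fractional counts in 17 libraries), a RAS GTPase-activating protein, rose too. DUSP14 (-0.62), DUSP5 (-0.34) and DUSP6 (-0.22) fell, so the phosphatases did not move together. Of 23 genes 12 rose (52.2%, against 22.9% of all genes) and 4 fell (17.4%, against 20.3%), with the same counts in the corrected fit.

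Targets of the mechanosensitive co-activators YAP and TAZ held some of the falls with the smallest adjusted p. ANKRD1, an ankyrin-repeat protein (chr10:90912096-90921276, minus strand), stood at 592, 578 and 614 CPM at 3 h and at 247, 229 and 229 CPM at 6 h (-1.34, SE 0.0596, adjusted p = 2.2e-11). Its 6 h level was also below the 0 h mean of 318 CPM. NUAK2, a kinase, fell from 19.7, 21.5 and 15.7 CPM to 8.72, 6.57 and 7.77 CPM (-1.30, adjusted p = 1.4e-06). The matricellular genes CCN1 (-0.92) and CCN2 (-0.76, fractional counts in 15 libraries) fell, CCN1 from 2073 to 2188 CPM to 1069.8 to 1211 CPM. GADD45B (-0.82), FJX1 (-0.70) and F3, tissue factor (-0.59), followed. In the other direction CRIM1 (0.76), PTPN14 (0.65) and the receptor kinase AXL (0.39) rose, AXL from 661 to 709.5 CPM to 801 to 936 CPM. The list was thus divided, with 11 of 26 higher and 10 lower, and 9 and 12 in the corrected fit. Genes of TGF-β and BMP signalling showed 5 higher and 5 lower of 26 (6 and 8 corrected), 19.2% in each direction and near the 22.9% and 20.3% of all genes tested. FST, follistatin, an activin antagonist, fell from 111, 111 and 119 CPM to 66.1, 62.5 and 60.4 CPM (-0.85, adjusted p = 8.7e-08), and the ligand BMP4 fell by 0.51, while the receptor BMPR2 rose (0.56). The inhibitory factor SMAD7 (0.04, adjusted p = 0.71) and the BMP target ID1 (0.02, adjusted p = 0.87) were not called.

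Regulators of mRNA decay, which limit how long cytokine mRNAs last, showed 13 of 18 higher and 2 lower, and 10 and 3 in the corrected fit. CNOT1, the scaffold of the deadenylase complex, rose by 0.76 (adjusted p = 0.00039, fractional counts in 17 libraries). ZFP36, tristetraprolin, which binds AU-rich elements, stood at 21.1, 20.6 and 19.4 CPM and then at 27.2, 24.8 and 25.6 CPM (0.34, adjusted p = 0.0015). TOB1 (0.51) and BTG1 (0.50), partners of the deadenylases, rose too. With ZC3H12A, described above, HNRNPD was the other member that fell (-0.15).

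Most of the mitotic genes tested, 34 of 47, rose. PLK1, the polo-like kinase that drives entry into mitosis (chr16:23677656-23690367, plus strand), stood at 63.6, 69.5 and 69.7 CPM at 3 h and at 108, 122.7 and 121 CPM at 6 h (0.80, SE 0.0749, adjusted p = 7.4e-07). ECT2 (0.88), which directs cytokinesis, INCENP (0.76), a subunit of the chromosomal passenger complex, MKI67, the proliferation antigen (0.69), FOXM1 (0.58, fractional counts in 17 libraries), a transcription factor of G2 genes, and TOP2A (0.58) rose. MKI67 went from 374, 340 and 388 CPM to 515, 642 and 623 CPM. CDC20, an activator of the anaphase-promoting complex, rose from 258 to 281 CPM to 319 to 335 CPM (0.28, adjusted p = 0.00062). CCNB1 (0.07, adjusted p = 0.38) and CDK1 (0.05), the kinase pair of mitotic entry, were not called. The remaining members were 3 called lower and 10 not called, and in the corrected fit 38 were higher and 1 lower, with medians of 0.35 and 0.30. The 3 lower genes, UBE2C (-0.42), PTTG1 (-0.39) and AURKB (-0.29), have short transcripts, and none was called in the corrected fit, where AURKB had a fold change of 0.01.

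Of the genes of DNA replication tested, 16 of 43 fell (37.2%, against 20.3% of all genes) and 7 rose (16.3%, against 22.9%). PCNA, the sliding clamp, stood at 311, 315 and 311 CPM at 3 h and at 237, 215 and 217 CPM at 6 h (-0.49, adjusted p = 1.6e-05). POLE, the leading-strand polymerase (-0.49), ORC6 (-0.40) of the origin recognition complex and POLA2 (-0.69, fractional counts in 17 libraries) fell, while RRM1, a subunit of ribonucleotide reductase, rose (0.47, adjusted p = 0.00014). In the corrected fit 8 were higher and 13 lower. The 7 rises became 1 without replicate 2 at 3 h, without replicate 2 or 3 at 6 h, or with those averaged, and 4 without replicate 1 at 3 h. Of 71 replication-dependent histone genes, whose mRNAs mostly lack a poly(A) tail, 26 passed the filter, and of these 0 rose and 6 fell (1 and 2 corrected). The share that fell, 23.1%, was near the 20.3% of all genes.

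Of the adhesion and matrix genes tested, 25 of 38 rose. ITGA2 (chr5:52989326-53094779, plus strand) stood at 68.0, 59.1 and 82.5 CPM at 3 h and at 145, 182 and 185 CPM at 6 h (1.29, SE 0.176, adjusted p = 0.00015). The corrected fold change was 1.04. ITGAV, the alpha subunit of several RGD-binding integrins (0.93), ITGB3, its beta partner (1.17), and ITGA6, a laminin receptor subunit (0.73), rose, and FN1, the matrix protein fibronectin, rose by 0.72. Those that fell were COL7A1 (-0.36), COL13A1 (-0.28) and LAMA3 (-0.26). In the corrected fit 22 were higher and 4 lower, with medians of 0.39 and 0.25. Several proteases of the cell surface rose as well: ADAM9 (1.01), ADAM17 (0.85, fractional counts in 17 libraries), ADAM10 (0.60) and MMP14 (0.62), the last from 368 to 385 CPM to 555 to 585 CPM. The protease inhibitor TIMP1 fell from 691, 751 and 619 CPM to 502, 422 and 405 CPM (-0.63, adjusted p = 0.00016). In that list 7 of 21 rose (33.3%, against 22.9% of all genes) and 2 fell (9.52%, against 20.3%). Those called lower were TIMP1 and the urokinase protease PLAU. In the corrected fit the counts were 9 and 2. Among markers of epithelial-mesenchymal transition 8 of 16 rose and 3 fell, 5 and 2 in the corrected fit and 4 higher with the 6 h replicates 2 and 3 averaged. The repressor ZEB1 (0.69) and the epithelial tight-junction gene CLDN4 (0.73) both rose, so this pair did not part the mesenchymal from the epithelial state. The marker lists given with the libraries did differ in direction. Mesenchymal markers showed 8 of 12 higher (66.7%) and 3 lower (25%), with PLAU among the lower (7 and 1 corrected). Luminal markers showed 1 of 9 higher (11.1%) and 5 lower (55.6%), and 1 and 3 corrected. All genes tested had 22.9% higher and 20.3% lower. The lists also differed in median transcript length, 4340.5 bases for mesenchymal and 2173 bases for luminal markers. The part of the length trend in this difference was not tested.

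Of the heat shock proteins and their co-chaperones, 14 of 21 rose and 4 fell. HSPA8 stood at 1255, 1048 and 1428 CPM at 3 h and at 2529, 3220.2 and 3258 CPM at 6 h (1.27, SE 0.133, adjusted p = 1e-05). The inducible HSPA1B (0.82) and HSPA1A (0.50), HSP90AA1 (0.56) and the co-chaperone HSPH1 (0.49) rose too, although HSPA1A, HSPA1B and HSP90AA1 had fractional counts in 16 or 17 libraries and the first pair are near-identical copies. HSPE1 (-0.51, fractional counts in 17 libraries) and HSPB1 (-0.46), small chaperones with short transcripts, fell, and HSPB1 lost the call in the corrected fit (adjusted p = 0.13). The counts were 13 and 1 in the corrected fit. In the endoplasmic reticulum 13 of 24 genes rose and 4 fell (13 and 3 corrected, and 10 and 1 with the 6 h replicates 2 and 3 averaged). SEL1L, which exports misfolded proteins (0.74), the chaperone HYOU1 (0.62, fractional counts in 16 libraries) and the sensor ATF6 (0.50) rose, whereas the main ER chaperone HSPA5 had a value of -0.05 and was not called.

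Stress and growth programmes gave mixed counts. Among p53 targets 9 of 26 rose (34.6%) and 5 fell (19.2%), against 22.9% and 20.3% of all genes, and 7 and 5 in the corrected fit. The cell-cycle inhibitor CDKN1A rose from 153, 150.5 and 151 CPM to 219, 215 and 220.3 CPM (0.52, adjusted p = 3.9e-06) and FAS, a death receptor, rose by 0.81. GADD45A fell from 173, 176 and 155 CPM to 100.3, 89.2 and 82.9 CPM (-0.89, adjusted p = 7.3e-07), PLK3 fell by 0.78, and MDM2 had a value of 0.06 (adjusted p = 0.49). Of the genes of the amino acid response driven by ATF4, 9 of 24 rose (37.5%) and 4 fell (16.7%), and 10 and 2 in the corrected fit. The largest rise was that of DDIT4, an inhibitor of mTORC1, which went from 48.9, 46.6 and 39.6 CPM to 84.1, 81.4 and 88.7 CPM (0.91, adjusted p = 7.8e-08). Genes of hypoxia and glycolysis showed 14 of 31 higher and 6 lower (17 and 6 corrected), with the glucose transporter SLC2A3 (0.82) highest and the peptide hormone ADM (-0.61) lowest. Antioxidant genes of NRF2 showed 9 of 24 higher (37.5%) and 5 lower (20.8%), and 11 and 2 in the corrected fit. The higher count was 4 with the 6 h replicates 2 and 3 averaged or without replicate 2 at 3 h. Sterol and fatty acid genes showed 14 of 34 higher and 6 lower (14 and 7 corrected), and the higher count was 6 and 5 under the same alternatives. Interferon-stimulated genes showed 9 of 35 higher and 9 lower (6 and 10 corrected), 25.7% in each direction against 22.9% and 20.3% of all genes. Among them were GBP3 (0.50) up and IFI6 (-0.74), GBP2 (-0.57) and ISG15 (-0.62) down. The higher count was 5 with the 6 h replicates 2 and 3 averaged and 4 without replicate 2 at 3 h.

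Some clock genes passed the test in each direction, in shares near those of all genes tested. PER2, a repressor of the clock, stood at 11.0, 9.01 and 9.54 CPM at 3 h and at 4.68, 4.98 and 5.13 CPM at 6 h (-1.0, SE 0.119, adjusted p = 9.9e-06). ARNTL, the activator BMAL1, rose from 3.93, 2.41 and 3.59 CPM to 5.88, 6.9 and 7.61 CPM (1.04, adjusted p = 0.00033). NFIL3 (0.73) and CLOCK (0.61) rose, and PER3 (-0.30, fractional counts in 16 libraries) and TEF (-0.46) fell. Of 20 genes 5 rose (25%, against 22.9% of all genes) and 4 fell (20%, against 20.3%), and 5 and 5 in the corrected fit.

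The broadest falls were in the transcripts of mitochondria and ribosomes. All 13 mitochondrially encoded mRNAs fell, with a median log2 fold change of -0.99, and all 13 fell in the corrected fit, with a median of -0.66. MT-CO1 (chrM:5904-7445, plus strand, fractional counts in 17 libraries) had a log2 fold change of -1.13 (adjusted p = 0.00052), and MT-ND3, a subunit of complex I, went from 1547, 1611 and 1549.5 CPM to 1026, 814 and 813 CPM (-0.83, adjusted p = 0.00049). Nuclear genes of the respiratory chain showed 57 of 76 lower and 3 higher, and 44 and 8 in the corrected fit. NDUFA1, another complex I subunit, went from 194, 213 and 174 CPM to 133, 104 and 104 CPM (-0.77, adjusted p = 0.00022). Mitochondrial ribosomal proteins showed 46 of 78 lower and 4 higher, and 30 and 16 in the corrected fit, where the median moved from -0.24 to -0.09. Cytosolic ribosomal proteins showed 77 of 84 lower and 1 higher, and 67 and 5 in the corrected fit, with medians of -0.49 and -0.27. RPL34 went from 636, 697 and 632 CPM to 448, 362 and 381 CPM (-0.72, adjusted p = 0.00014), and RPL7L1, a paralog with fractional counts in 17 libraries, was the member that rose (0.29). Factors that build ribosomes did not share this direction: 17 of 41 rose and 15 fell (15 and 8 corrected), with DDX21 at 0.76 and POLR1C at -0.58. All 5 metallothioneins tested fell, MT2A by 0.55 and MT1X by 0.65, and 3 were called in the corrected fit. Constitutive proteasome subunits showed 4 of 31 higher and 15 lower, but 10 higher and 11 lower in the corrected fit.

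**Figure D3:**
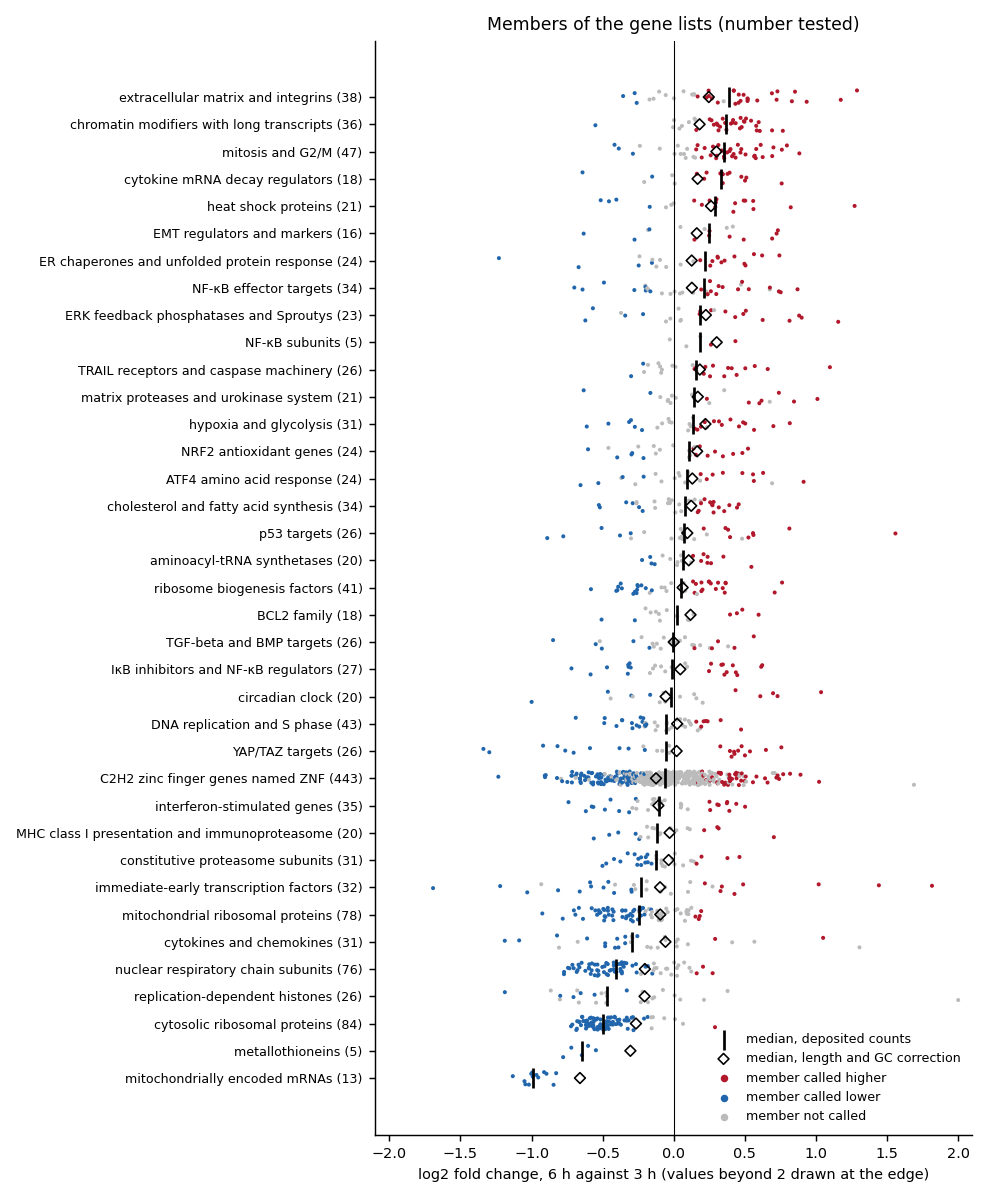
Log2 fold change at 6 h against 3 h (x axis) of each tested member of the 37 gene lists (y axis, number tested in brackets), in red where called higher, blue where called lower and grey otherwise, with the list median in the deposited counts (bar) and after length and GC correction (diamond). Matrix and integrin genes lie furthest to the right (median 0.39) and mitochondrially encoded mRNAs furthest to the left (median -0.99).

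Transcript length moved with the direction of the calls. Genes called higher had a median transcript length of 4940 bases and 12 exons, genes called lower 2237 bases and 6 exons, and all genes tested 3333 bases and 8 exons. The GC content had medians of 44.2%, 51.8% and 48.4%. When genes were divided into 10 classes by length, the shortest class (median 796 bases) had a median log2 fold change of -0.42, with 2.94% called higher and 38.8% lower. In the longest class (median 9101 bases) it was 0.27, with 50.1% higher and 6.26% lower. After correction the 2 medians were -0.07 and 0.05. Chromatin modifiers, whose list was made for its long transcripts, showed 28 of 36 higher and 1 lower, and 19 and 2 in the corrected fit, with medians of 0.37 and 0.18. EP300, a histone acetyltransferase, rose by 0.77 and KDM6B, a histone demethylase, fell by 0.55. Among the 443 tested genes of C2H2 zinc fingers named ZNF, 41 rose (9.26%) and 93 fell (21.0%), and 40 and 127 in the corrected fit.

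**Figure D4:**
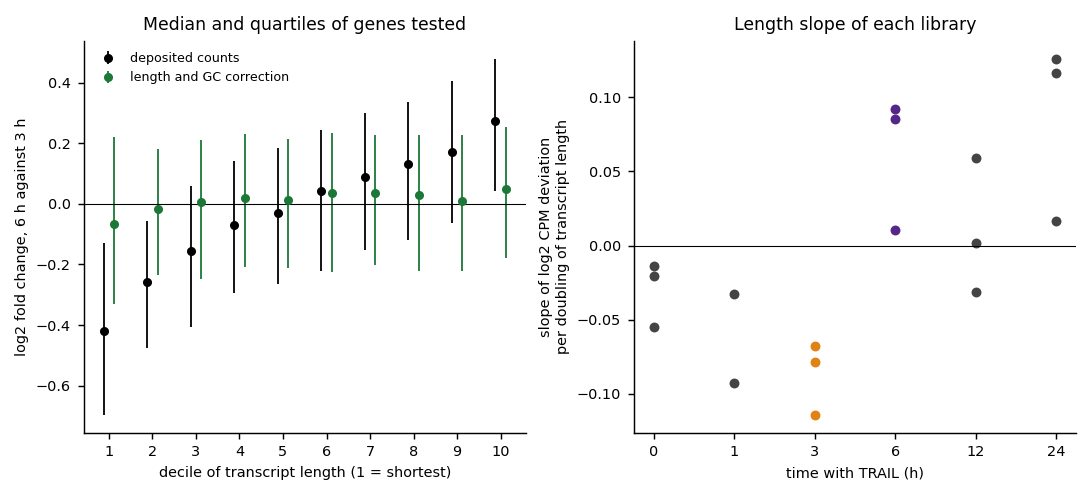
Left, median (point) and quartiles (line) of the log2 fold change at 6 h against 3 h (y axis) in 10 equal classes of genes by transcript length (x axis, 1 the shortest), for the deposited counts (black) and after correction (green). Right, slope of log2 CPM deviation per doubling of transcript length, from a regression that also held GC content (y axis), in each library by time (x axis, equally spaced), with all 3 h libraries (orange) below 0 and all 6 h libraries (purple) above 0.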

How the data were processed

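The authors deposited 1 table of gene-level expected counts (RSEM, per the file name), not scaled to depth or length. Per the submitters' processing notes, cutadapt 1.18, STAR 2.7.0f and the build hg38 were used, with roles not stated. Which annotation release was counted, and with which strand setting, is not given in the sources used here. A share of 10.8% of the authors' expected counts was fractional, as arises where fragments are divided between genes.

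Expected counts were rounded. Genes were kept by filterByExpr and libraries scaled by TMM in edgeR 4.0.16 (R 4.3.3), with factors from 0.939 to 1.06. A robust quasi-likelihood model with 1 mean per time over all 17 libraries gave 11 residual degrees of freedom and a common biological coefficient of variation of 7.06%. The contrast 6 h minus 3 h was tested in 15365 genes with Benjamini-Hochberg adjustment. The calls are at an adjusted p below 0.05, and all adjusted p-values come from edgeR. At an unadjusted p below 0.05 there were 7764 genes. Fold changes of single genes in brackets are log2 fold changes, levels are CPM on TMM-scaled totals, and errors are SD over 3 libraries. The correction removed per-library spline trends (5 degrees of freedom each) of log2 CPM on the longest transcript length and GC content from GENCODE 29 (GRCh38), which matched 58597 of 58870 entries by Ensembl ID, and supplied coordinates. Promoters came from RefSeq. The pipeline was tested on simulated counts.

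The comparison and the gene lists were chosen with earlier results of these data known, and lists are described by counts and medians with no test of their own. Lists defined by a naming pattern were restricted to protein-coding genes after seeing the data. Named genes are the 12 highest and 12 lowest called genes with non-overlapping groups and an average log2 CPM of at least 2, the 6 largest gains and losses in CPM, NFKB2, and called or characteristic list members. RLE, upper-quartile and library-size scaling, no filter, a filter at a mean of 10 counts, limma-voom 3.58.1, DESeq2 1.42.0, non-robust estimation, a fit of 3 h and 6 h alone, a replicate block, unrounded counts, averaged 6 h replicates and each library left out were the alternatives.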

Additional observations from a re-analysis of the deposited data

How the results depend on the processing

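The counts of genes higher and lower at 6 h stayed within 1.5 times of 3526 and 3114 under every alternative run. They were 3492 and 3149 with RLE scaling, 3355 and 2816 with DESeq2, 3482 and 3090 with limma-voom, and 2796 and 2351 with 6 h replicates 2 and 3 averaged. With each library left out in turn they ran from 2709 to 3598 and from 2314 to 3214. The counts at 2-fold moved more. The 107 genes higher by 2-fold became 175 with no filter and 69 with the averaged replicates, and ran from 67 to 155 without single libraries, with 68 without replicate 2 at 3 h and 67 without replicate 3 at 6 h. The 291 genes lower by 2-fold became 172 with length and GC correction, 175 with correction and block, and 187 with the averaged replicates, and ran from 191 (without replicate 2 at 3 h) to 373 without single libraries. Same-numbered replicates at 3 h and 6 h deviated with r of -0.0124, -0.0484 and 0.114, and differently numbered ones with r from -0.119 to 0.131. With 3 libraries per time these values cannot exclude a pairing by number. The replicate block gave 3535 genes higher and 3109 lower. Of named genes, AHSA1 (0.103 in both the corrected fit and the corrected fit with block), PRDX1 (0.0022 and 0.00222), FTH1 (0.00238 in both), TALDO1 (0.0702 and 0.0703), PSMB7 (0.012 and 0.0119) and AURKB (0.0139 and 0.0147) turned from lower to higher in log2 fold change, and NDUFS1 (-0.0469 and -0.0465) from higher to lower. Of these, AHSA1 was called there and the others were not. Lists with more members higher than lower numbered 23 of 37, and 18 to 25 over the alternatives, 18 with upper-quartile scaling. List medians changed sign for IκB regulators (0.05), YAP/TAZ targets (0.02) and S phase genes (0.02) in the corrected fit, for IκB regulators (0.06), clock genes (0.05), YAP/TAZ targets (0.01), S phase genes (0.02), TGF-β targets (0.07) and ZNF genes (0.01) with library size alone, and for the BCL2 family (-0.04) and ribosome biogenesis (-0.01) with upper-quartile scaling. The cause of these changes was not tested.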

Other observations

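Groups not described above moved less evenly. Of 20 cytosolic aminoacyl-tRNA synthetases, which charge tRNAs, 8 rose and 4 fell, and 10 and 4 in the corrected fit. IARS, for isoleucine, stood at 214, 191 and 243 CPM at 3 h and at 275, 329.6 and 342 CPM at 6 h (log2 fold change 0.55, adjusted p = 0.00039). KARS, for lysine, fell by 0.22. With the 6 h replicates 2 and 3 averaged, 6 rose and 1 fell. Of 20 genes of antigen presentation by MHC class I, 4 rose and 5 fell (5 and 4 corrected), shares of 20% and 25% against 22.9% and 20.3% of all genes tested. The peptidase ERAP1, which trims peptides in the endoplasmic reticulum, stood at 68.7, 64.6 and 74.5 CPM and then at 106, 119 and 114 CPM (0.70, adjusted p = 5.3e-05, fractional counts in 17 libraries). The transporter subunits TAP1 (0.32) and TAP2 (0.31) rose, while PSMB10, a subunit of the immunoproteasome, fell from 49.2, 56.4 and 42.2 CPM to 36.3, 31.6 and 32.0 CPM (-0.56, adjusted p = 0.0011, fractional counts in 17 libraries). HLA-B (0.10) and B2M (0.02) were not called. In bulk RNA, a change in the number of cells that express a gene and a change in the RNA per cell cannot be told apart, and this holds for every gene given here.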
